A study of Gallus gallus with 8 samples.

Results

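The 287 transcripts described here are the well-expressed long non-coding RNAs (lncRNAs) of chicken trachea. They are the genes that the deposited table types as lncRNA and that reached a summed count of at least 300 over its 2 mRNA libraries, out of 5763 lncRNA genes and 26296 genes of all types. They were selected on this measured sum, so their levels and ratios are given as a description. The series compared trachea of chickens (Gallus gallus) aged 42 days that had lived in chambers with hydrogen sulfide (H2S), an irritant gas of poultry houses, with trachea of control birds whose chamber received none. The dose was 3.5 to 4.5 mg/kg of H2S during weeks 0 to 3, raised to 19.5 to 20.5 mg/kg for weeks 4 to 6. The labels name no breed or sex and do not say whether a library came from 1 bird or from a pool. The lncRNA counts come from 1 H2S library and 1 control library, both numbered 3, so no test between the groups was possible, and every ratio below compares these 2 libraries and has no replicate check. Small RNA was sequenced in 3 H2S and 3 control libraries, which the choice of lncRNAs did not use.

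lncRNAs are transcripts without a long open reading frame that are made and often spliced like mRNAs. Some act on neighbouring genes, some bind proteins or miRNAs, and some are precursors from which miRNAs are cut. Their sequences change quickly between species, so most chicken lncRNAs carry only a locus number. Of 58 lncRNAs and other non-coding RNAs known from vertebrates that were looked for by symbol, 4 had a row in the table. OIP5-AS1 was the only well-expressed lncRNA among them. MIR155HG, the host of miR-155, had 6 counts in the H2S library against 10 in the control library and was not among the well-expressed ones.

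Mature miRNAs tie some of these lncRNAs to the small RNA libraries. Shown are the main miRNAs encoded inside 2 of the lncRNA genes, and miR-7, which in mouse is destroyed after it pairs with the OIP5-AS1 transcript. The sequences are those of the deposited miRNA table, written with T for U, and the capitals mark the seed, bases 2 to 8, which pairs with targets.
miR-100-5p: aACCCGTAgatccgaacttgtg
let-7a-5p: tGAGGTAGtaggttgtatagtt
let-7a-2-3p: cTGTACAAcctcctagctttcc
miR-181a-5p: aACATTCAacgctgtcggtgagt
miR-181a-3p: aCCATCGAccgttgattgtacc
miR-181b-5p: aACATTCAttgctgtcggtggg
miR-7: tGGAAGACtagtgattttgttg
The 5p forms of miR-181a and miR-181b share 1 seed, and the other sequences each have a seed of their own.

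Few of the annotated lncRNA genes were well covered. Of the 5763 lncRNA genes, 2175 (37.7%) had no count in either library and 1592 (27.6%) reached a summed count of 20, against 74.1% of the 19087 genes typed as mRNA. A summed count of 300 was reached by 4.98% of lncRNA genes and by 54.4% of mRNA genes. The 287 well-expressed lncRNAs took 0.722% of the counts of the H2S library (95% exact binomial interval 0.719% to 0.726%) and 0.763% of those of the control library (0.759% to 0.767%). Total counts were 20839798 in the H2S library against 18875586 in the control library. These intervals, like all those below, cover counting error only. Most of the 287 lay near the threshold, since 80.1% had a summed count under 1000 and the median was 542. Just inside were LOC107055484 with 301 counts, LOC101751084 with 303 and OR14L1P with 305. Just outside were LOC107055278 with 299 and LOC101751754 and LOC107053519 with 297 each. Their ratios were 1.44, 1.07 and 1.27, and those of the lncRNAs just inside were 1.20, 1.85 and 0.861.

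The tissue of the 2 libraries sets the frame for these ratios. Markers of cartilage, multiciliated cells and skeletal muscle were present in both, while the W-linked gene HINTW was at 0 in both. Levels below are TMM-scaled CPM, counts set relative to the size of each library. Their sum over 22 interferon-stimulated genes was 13880 in the H2S library against 1868 in the control library. For 4 plasma cell markers the sums were 1466 against 6472 CPM, with IGJ and IGLL1 lower in the H2S library and MZB1 and POU2AF1 not. The sums were, of 3 skeletal muscle markers 7485 against 4457 CPM, of 4 cartilage markers 20220 against 16256 CPM, of 4 multiciliated markers 267 against 310 CPM, and of 2 neuron markers 2.34 against 2.19 CPM. The part of these differences in the lncRNA ratios was not tested. In such bulk libraries, fewer cells of a type and less RNA per cell cannot be told apart.

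OIP5-AS1, also called Cyrano, took by far the most reads. This conserved lncRNA carries, in mouse, a site that pairs with miR-7 and marks it for decay. It had 21508 counts (1050 CPM) in the H2S library against 24437 counts (1272 CPM) in the control library, which is 15.6% of all counts of the 287 lncRNAs. Its ratio of H2S over control was 0.825 (95% counting interval 0.810 to 0.841). The gene next to it, OIP5, which encodes a centromere protein, had 172 and 173 counts and a ratio of 0.932 (0.751 to 1.16). Reads of OIP5-AS1 thus outnumbered those of OIP5 in both libraries.

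miR-7 itself was measured in all 6 small RNA libraries. It stood at 734, 1398 and 839 CPM in H2S libraries 1 to 3 and at 1233, 802 and 1367 CPM in control libraries 1 to 3. The groups overlapped, and the log2 fold change was -0.20 (SE 0.32, edgeR quasi-likelihood adjusted p = 0.792). In the libraries numbered 3, the lncRNA was at 1050 CPM in H2S and 1272 CPM in control mRNA, and the miRNA at 839 CPM in H2S and 1367 CPM in control small RNA. The shared number alone does not show that the mRNA and small RNA libraries came from the same birds. Between the small RNA libraries numbered 2, miR-7 went the other way, at 1398 CPM in H2S and 802 CPM in control. The table assigns miR-7 to 3 precursors, so the locus its reads came from is not known. A separate entry, miR-7b, has the same seed, and its reads are not part of the values above. Its levels were 621, 6.39 and 2.47 CPM in H2S libraries 1 to 3. In control libraries 1 to 3 they were 3.40, 791 and 7.68 CPM. The values above are therefore those of miR-7 alone and not of all reads with this seed. H2S library 1 and control library 2, the highest in miR-7b, were the lowest in miR-7. They were also the lowest in another miRNA, miR-2954, at 294 and 403 CPM, against 1775 to 3200 CPM in the other libraries. The H2S and control libraries numbered 1, and those numbered 2, thus differ in this split, while those numbered 3 do not. Its part in the miR-7 values was not tested.

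LOC423474 took the next most reads, with 10945 counts in the H2S library against 7021 in the control library (534 and 366 CPM). Its ratio was 1.46 (1.42 to 1.51). The RefSeq gene table places it between CDC42BPB, a kinase of the cytoskeleton, and EXOC3L4, whose ratios were 0.957 and 0.915. OIP5-AS1 and LOC423474 together held 21.7% of the counts of the 287, and the 10 with most reads held 33.4%.

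The other 8 of the 10 with most reads had 1544 to 3911 counts in each library and ratios within 2-fold. LOC101748672 had 3087 and 3911 counts and a ratio of 0.740 (0.706 to 0.776), and LOC107052787 had 1589 and 2146 counts and the lowest ratio of the 8, 0.694 (0.650 to 0.741). LOC107054414 was the one above 1 among the 8, at 1.17 (1.11 to 1.24) from 2571 and 2057 counts. The remaining ratios were 0.897 for LOC107052650, 0.858 for LOC107051614, 0.735 for LOC101752163, 0.784 for LOC101751743 and 0.904 for LOC107050845. RefSeq now types LOC107052650 as protein-coding. Levels are not divided by transcript length, since the sources used here give no transcript lengths for these rows, so they order genes by reads and not by molecules.

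The nearest coding genes of 3 of these lay close to a ratio of 1 or had few counts. VEZT, next to LOC101751743 and encoding a protein of cell junctions, had a ratio of 0.987. LOC423629, next to LOC101752163, had 65 and 61 counts and a ratio of 0.999. GPR85, an orphan receptor gene next to LOC107052650, had 53 and 32 counts and a ratio of 1.55. On the other side of LOC101752163 lies SFTPA1, which encodes the lung collectin surfactant protein A and is named after its value was seen. SFTPA1 had 1097 counts in the H2S library against 35 in the control library, 29.4-fold higher, whereas LOC101752163 had 1575 and 2009 counts.

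**Figure D1:**
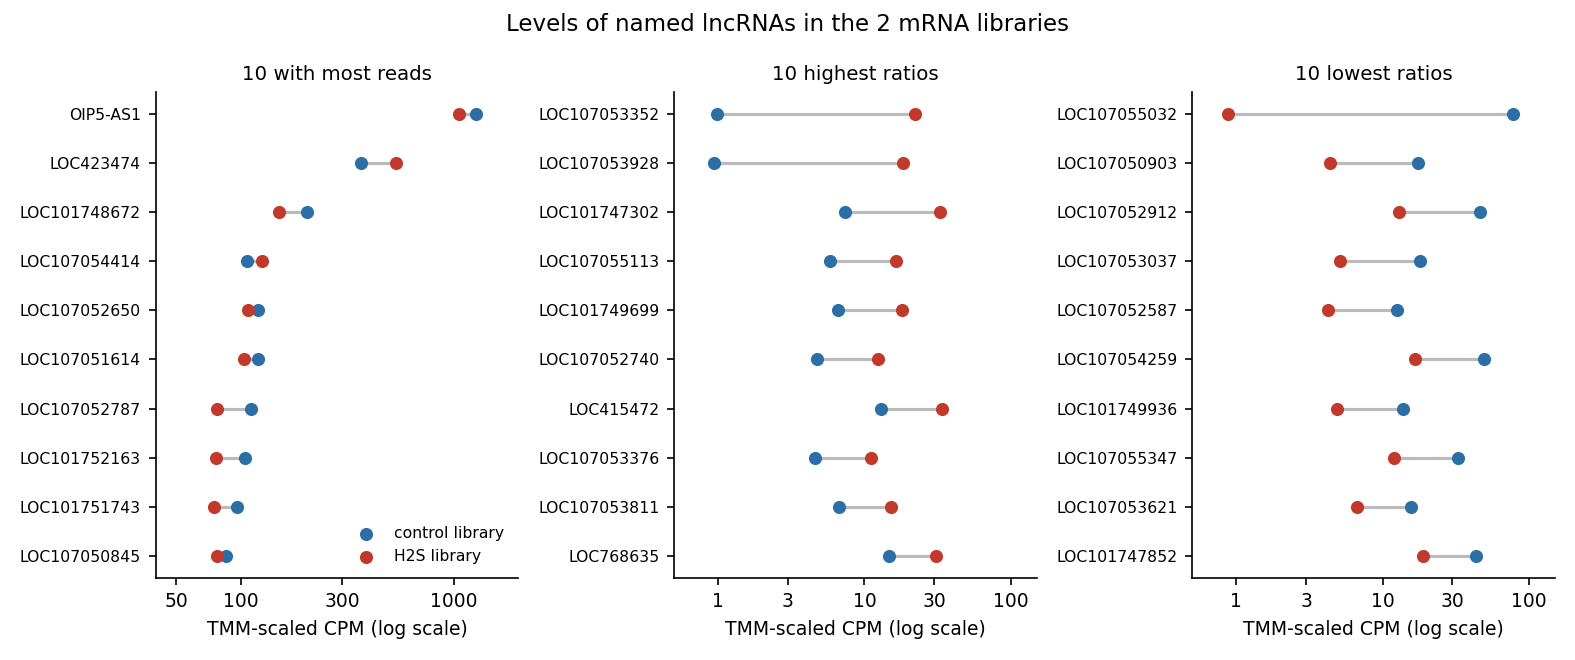
Levels in TMM-scaled CPM (log axis) of the 10 lncRNAs with most reads, the 10 with the highest and the 10 with the lowest ratio, with 1 point per library and no replicates. The most-read lncRNAs differ little between the libraries, while LOC107055032, LOC107053352 and LOC107053928 lie near 1 CPM in one library and far above it in the other.

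A larger share of lncRNAs than of protein-coding genes with equal counts lay past 2-fold. The threshold is on the sum of both libraries, so a gene of either type can reach it through 1 library. LOC107053352 (451 counts in H2S, 19 in control), LOC107053928 (373 and 18) and LOC107055032 (18 and 1486) did so. They are among the lncRNAs counted here, and the shares are a description. Of the 287 lncRNAs, 12 (4.18%, 95% exact binomial interval 2.18% to 7.19%) had a ratio of 2 or more, and 17 (5.92%, 3.49% to 9.31%) were lower by 2-fold or more, where among the 10736 genes of all types with as many counts 2.18% were higher, 1.2% lower and 3.38% either. Among all 10386 genes typed as mRNA with as many counts, 2.11% were higher, 1.07% lower and 3.18% either. The same genes, weighted to the count bins of the lncRNAs, gave 2.20% higher and 1.70% lower. In either direction, 29 lncRNAs (10.1%, 6.87% to 14.2%) and 3.90% of equal-count mRNA genes lay past 2-fold, a difference of 6.21 percentage points. At 1.5-fold the shares were 23.3% and 13.9%. Only 7 lncRNAs (2.44%, 0.986% to 4.96%) passed 3-fold, against 1.23% of equal-count mRNA genes. The binomial intervals treat genes as independent draws, which genes of 1 library pair are not.

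The middle of the distribution was wider as well. The quartiles of the log2 ratio were -0.29 and 0.32 in the lncRNAs, an interquartile range of 0.62, and -0.25 and 0.22 in equal-count mRNA genes, a range of 0.47. The median log2 ratio was 0.06 in the lncRNAs (0.0063 with scaling by total counts) and -0.02 in equal-count mRNA genes. Over all mRNA genes with a summed count of at least 300, without weighting, it was -0.0060, and -0.056 with total counts, so both types moved alike. With TMM scaling, 152 lncRNAs were above a ratio of 1 and 135 below it. The counting interval of the ratio left out 1 in 172 lncRNAs (59.9%), and in 52.1% of mRNA genes at equal counts. At summed counts of 300 to 599, the 2 directions were balanced in both types, with 9 lncRNAs higher and 10 lower and 41 mRNA genes higher and 42 lower past 2-fold. At 600 to 1199, 1200 to 2399 and 2400 or more, mRNA genes leaned higher, with 47 higher and 20 lower, 30 and 22, and 101 and 27. The lncRNAs had 3 higher and 4 lower, 0 and 3, and 0 and 0 in these ranges.

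The difference was seen in 3 of 4 count ranges. At summed counts of 300 to 599, 19 of 157 lncRNAs (12.1%, 7.45% to 18.3%) and 4.71% of 1762 mRNA genes lay past 2-fold. At 600 to 1199 the shares were 7 of 86 (8.14%, 3.34% to 16.1%) and 3.04%, and at 1200 to 2399 they were 3 of 27 (11.1%, 2.35% to 29.2%) and 2.24%. Of the 17 lncRNAs with 2400 counts or more, 0 lay past 2-fold, which with so few genes allows a share of up to 19.5% by the exact interval. In mRNA genes of that range the share was 3.12%.

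**Figure D2:**
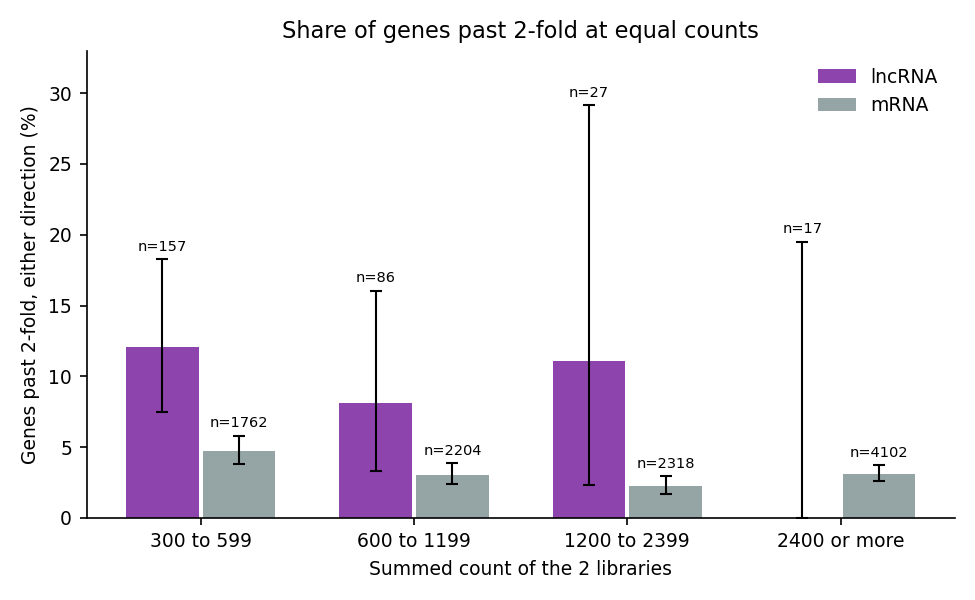
Percent of genes past 2-fold in either direction by summed count, for lncRNAs and for genes typed as mRNA, with 95% exact binomial intervals as error bars and the number of genes above each bar. The lncRNA bars are higher up to 2399 counts, at 12.1%, 8.14% and 11.1% against 4.71%, 3.04% and 2.24%, and the 17 lncRNAs of the last range include none.

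LOC107055032 stood apart on the lower side. It had 18 counts (0.879 CPM) in the H2S library and 1486 counts (77.4 CPM) in the control library, 88.0-fold lower (55.5 to 149). The RefSeq gene table used here, of the GRCg7b assembly, has no entry under this number, so its neighbours are not given. The next lowest, LOC107050903, had 89 and 333 counts and was 3.99-fold lower (3.15 to 5.10). Between these 2 lncRNAs lay a gap that no other well-expressed lncRNA filled.

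The remaining 8 of the 10 lowest ratios ran from 3.60-fold to 2.30-fold lower. LOC107052912, with 264 and 892 counts, and LOC107054259, with 340 and 940, were 3.60-fold (3.14 to 4.15) and 2.95-fold (2.60 to 3.35) lower. LOC107053037, LOC107052587 and LOC107053621 were 3.53-fold, 2.99-fold and 2.34-fold lower. None of these 5 has an entry in the RefSeq gene table.

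The other 3 have one. LOC101749936, 2.80-fold lower from 100 and 263 counts, overlaps the span of EIF2S1, which encodes a subunit of the translation initiation factor eIF2 and had a ratio of 1.13. LOC107055347, 2.74-fold lower from 244 and 627 counts, overlaps REXO1, which has no row in the deposited table under that symbol. LOC101747852, 2.30-fold lower from 389 and 839 counts, lies apart from coding genes, the nearest being HS3ST1, a heparan sulfate sulfotransferase gene with a ratio of 0.839. The counting interval stayed below 1 in all 17 lncRNAs past 2-fold on the lower side. A summed count of at least 300 fixes this in advance, so it is no added support.

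LOC107053352 had the highest ratio. It had 451 counts (22.0 CPM) in the H2S library and 19 counts (0.989 CPM) in the control library, 22.3-fold higher (14.1 to 37.3). In RefSeq order it lies between USP41, a gene for a ubiquitin-specific protease, and AKR1B1, which encodes aldose reductase. AKR1B1 had 6899 and 4733 counts and a ratio of 1.37 (1.32 to 1.42). USP41 has no row in the deposited table under that symbol. The table does have a row for USP18, a protease that removes the interferon-induced modifier ISG15, with 11980 and 2088 counts and a ratio of 5.38 (5.14 to 5.64), but the sources used here do not say whether it counts the same locus.

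Other genes on the USP41 side of LOC107053352, named after their values were seen, also had more counts in the H2S library. The lncRNA LOC107053357, on the far side of USP41 and below the count threshold, had 62 and 10 counts, a ratio of 5.81 (2.96 to 12.7). The alpha-tubulin genes TUBA8A and TUBA8B beyond it had 336 against 138 counts (2.28, 1.87 to 2.80) and 52 against 4 counts (12.2, 4.49 to 46.4). On the AKR1B1 side, LOC418170, AKR1E2 (deposited under the name AKR1B1L) and LOC425137 had ratios of 0.683, 0.760 and 0.581. Similar tubulin genes, and similar aldo-keto reductase genes, can share reads, so their single ratios are uncertain.

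**Figure D3:**
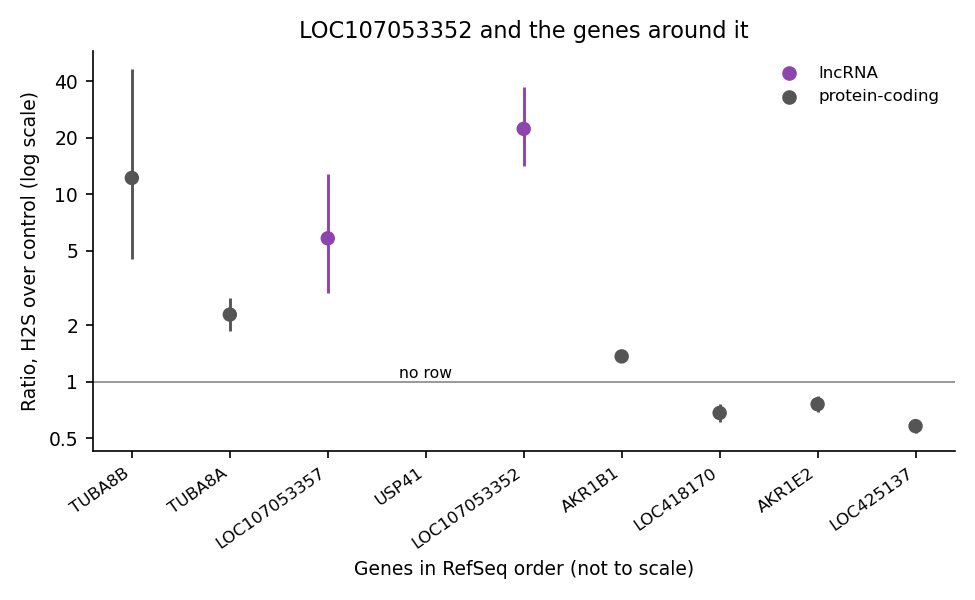
Ratio of H2S over control (log axis) for LOC107053352 and the 4 genes on each side in RefSeq order, with 95% counting intervals as vertical lines. LOC107053352 is at 22.3, the measured genes to its left are between 2.28 and 12.2, and those to its right lie between 0.581 and 1.37.

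LOC107053928 was close behind, with 373 counts (18.2 CPM) in the H2S library and 18 counts (0.937 CPM) in the control library, 19.4-fold higher (12.1 to 33.2). RefSeq now types it as protein-coding, and its span overlaps FASLG, which encodes the death ligand of T and natural killer cells. FASLG had 284 and 165 counts and a ratio of 1.61 (1.33 to 1.97), and TNFSF4, the next gene, a ratio of 1.02. Both the lncRNA row and FASLG thus had more counts in the H2S library, by very different factors. The strandedness of the counting is not given, so reads of overlapping genes cannot be told apart.

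LOC101747302 was the third highest, with 672 and 141 counts and a ratio of 4.47 (3.72 to 5.40). It overlaps RFC2, which encodes a subunit of the clamp loader of DNA replication and had a ratio of 0.851 (0.719 to 1.01). The other neighbour, CLIP2, a microtubule-binding protein gene, had a ratio of 1.49.

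The remaining 7 of the 10 highest ratios ran from 2.82 to 2.08. LOC107055113, with 337 and 112 counts, was at 2.82, and LOC107053376, LOC107053811 and LOC768635 were at 2.41, 2.29 and 2.08, all 4 without a RefSeq entry. LOC101749699, at 2.72 from 368 and 127 counts, overlaps VSTM2B, which is deposited under the name LOC101751621. VSTM2B had only 45 and 19 counts and a ratio of 2.22 (1.27 to 4.02). LOC107052740, at 2.61 from 253 and 91 counts, overlaps MCMDC2, a meiosis gene with a ratio of 1.29. LOC415472, at 2.59 from 692 and 251 counts, is typed as protein-coding in RefSeq and overlaps IL16, which encodes a chemoattractant of CD4+ T cells and had a ratio of 1.43. Below these 10, LOC107054726, named after its value was seen, had 247 and 114 counts, a ratio of 2.03. It overlaps the span of the fast skeletal myosin gene MYH1B, which had 73616 and 72713 counts and a ratio of 0.949.

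**Figure D4:**
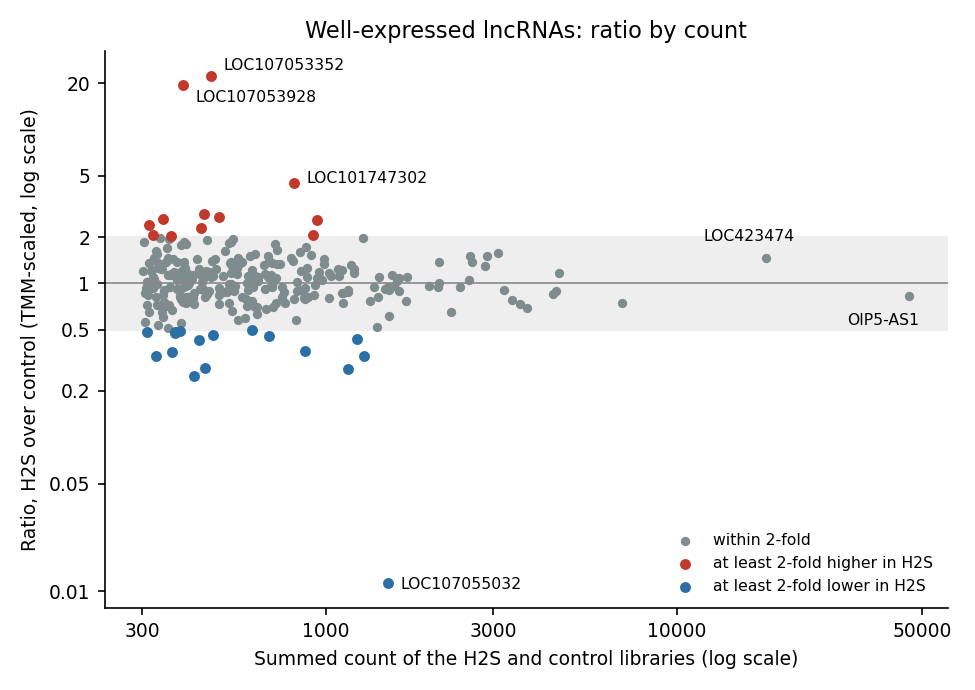
Ratio of H2S over control against the summed count of the 2 libraries, both on log axes, with 1 point for each of the 287 lncRNAs and the range within 2-fold shaded. The 12 higher and 17 lower lncRNAs have summed counts under 2400, and 3 of them, at 22.3, 19.4 and 0.0114, lie far from the rest.

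Position and type could be looked up for a minority of the lncRNAs. The RefSeq gene table has an entry for 115 of the 287 (40.1%) and none for 172 (59.9%). Any count of a position or RefSeq type over all 287 is therefore void, and such counts describe the 115 alone. RefSeq types 97 of them as lncRNA and 18 as protein-coding. Of the lncRNAs past 2-fold, 16 had no entry and 13 had one. The share past 2-fold was 9.30% without an entry, 11.3% with one and 11.1% among the 18 typed as protein-coding.

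Among the 18, and picked after their values were seen, are LOC769840 and LOC107054877. LOC769840 is named KY in RefSeq, a gene for a protein of the muscle contraction apparatus. It had 1941 and 1151 counts, a ratio of 1.58 (1.47 to 1.70). The skeletal muscle markers ACTA1, TNNT3 and CKM had ratios of 1.73, 1.52 and 1.46. The skeletal myosin genes MYH1B and MYH1G did not go with these, at 0.949 and 0.878. LOC769840 overlaps EPHB1, a receptor kinase gene with a ratio of 1.01. LOC107054877, with 1582 and 988 counts and a ratio with an interval of 1.39 to 1.63, overlaps OSER1, whose ratio was 0.856.

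Ratios of lncRNAs and of their nearest coding genes went together only loosely. Of the 115 lncRNAs, 60 overlapped the span of a coding gene. For 98 the nearest coding gene had a summed count of at least 20, and in 54 of these (55.1%) both ratios lay on the same side of 1. Pearson's r of the log2 ratios was 0.22 and Spearman's rho 0.20 over these 98 pairs, given as a description, since all points share the same 2 libraries and overlapping genes can share reads. Of the 12 pairs whose lncRNA was past 2-fold, 9 were on the same side of 1, and in 1 the neighbour was also past 2-fold, VSTM2B beside LOC101749699.

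Some lncRNAs lie next to transcription factor genes of tracheal cell types, a group picked after the values were seen. LOC107052240, next to the cartilage regulator SOX9, had 569 and 308 counts and a ratio of 1.73, and SOX9 had one of 1.32. LOC107053389 overlaps the cartilage regulator SOX6 and had 420 and 263 counts, a ratio with an interval of 1.28 to 1.75, beside 1.34 for SOX6. The cartilage markers ACAN and COL2A1 had ratios of 1.70 and 1.12 in the same libraries.

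On the lower side, LOC101751159 lies next to TP63, the regulator of basal epithelial cells, with 284 and 390 counts and a ratio of 0.683, and TP63 was at 0.490. LOC769359 overlaps RFX3, a regulator of ciliated cells, with 272 and 363 counts and a ratio of 0.703, beside 0.714 for RFX3. Over all 98 pairs with a measured neighbour, 54 (55.1%) lay on the same side of 1. Among the 13 pairs with a transcription factor gene, 8 did, a similar share, and 5 lay on opposite sides. LOC107053900, which overlaps the stress-induced gene NR4A2, was at 1.24 while NR4A2 was at 0.309, and LOC101750998 was at 0.651 while POU3F3 next to it was at 1.27. The other 3 such pairs were EBF3, ZEB2 and TEAD1. RefSeq now types LOC101751159 and LOC107053900 as protein-coding.

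Of the 115 lncRNAs with a RefSeq entry, 5 have spans that hold miRNA genes, and the other 172 could not be looked up. LOC107055055 holds those of miR-100, let-7a-2, miR-125b-1 and miR-6675, a cluster kept across vertebrates in its first 3 members. It had 254 counts in the H2S library against 217 in the control library, a ratio of 1.10 (0.912 to 1.32), a difference not detectable at this depth. LOC107053920 holds miR-181a-1 and miR-181b-1, miRNAs known for their part in lymphocyte development. It had 486 and 311 counts, a ratio of 1.47 (1.27 to 1.70), and the nearest coding gene, PTPRC, which encodes the leukocyte surface protein CD45, had a ratio of 1.06.

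The other 3 hold miRNAs with few reads. LOC107052240 next to SOX9 holds miR-1672, with 2 to 8 counts per small RNA library. LOC107052100 had a ratio of 0.834 and holds miR-1646, with 1 to 9 counts. LOC107051941 had a ratio of 0.845 and holds miR-1631, with 0 to 10 counts, and HSPB3, a small heat shock protein gene that it overlaps, had a ratio of 0.666. LOC107052100 overlaps KATNAL1, a microtubule-severing enzyme gene with a ratio of 0.865, and LOC107055055 overlaps SORL1, a sorting receptor gene with a ratio of 0.948.

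None of the 7 mature miRNAs from these loci with enough reads for the test passed it, where 0.265% of all 378 tested miRNAs passed. edgeR called 0 of the 7, as did DESeq2, which called 8 of the 429 miRNAs it tested. Of the 7, 2 had an unadjusted edgeR p under 0.05, as had 67 of the 378 (17.7%). With total counts, the replicate block or DESeq2, 1 of the 7 did. With TMM scaling the groups did not overlap in 3 of the 7, against 25.7% of all tested miRNAs, and with scaling by total counts they did not overlap in 1 of the 7, let-7a-2-3p, against 26.5%. Scaling by total counts lowered the median log2 difference over all 378 miRNAs by 0.22. The labels do not tie the small RNA libraries to separate birds, and these p-values then measure only the spread between libraries, which may be technical.

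miR-181a-3p, which the table assigns to the miR-181a-1 precursor alone, stood at 93.4, 85.9 and 98.9 CPM in H2S libraries 1 to 3 and at 66.0, 53.2 and 58.9 CPM in control libraries 1 to 3. With TMM scaling the lowest H2S library was above the highest control, but with total counts they overlapped, at 71.0 CPM for H2S library 2 and 73.0 CPM for control library 1. The log2 fold change was 0.64 (SE 0.18, edgeR quasi-likelihood adjusted p = 0.169), and 0.38 with total counts. miR-181a-5p, which the locus shares with miR-181a-2, stood at 1522, 1589 and 1430 CPM in H2S and 1204, 1268 and 1180 CPM in control libraries, without overlap under TMM and with overlap under total counts. Its log2 fold change was 0.31 (SE 0.16, edgeR adjusted p = 0.358), and 0.042 with total counts. miR-181b-1-3p was at 4.70 ± 0.85 and 3.72 ± 1.01 CPM, and miR-181b-5p, shared between 2 precursors, at 230 ± 9.5 and 249 ± 64 CPM (H2S and control, mean ± SD, n = 3 each), both with overlap.

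At the other locus, miR-100-5p was abundant and even. It stood at 10710, 12233 and 8525 CPM in H2S libraries and 10463, 9881 and 8800 CPM in control libraries, with overlap. Its log2 fold change was 0.11 (SE 0.19, edgeR adjusted p = 0.801) and had the opposite sign, -0.17, with scaling by total counts. let-7a-2-3p, the form that marks this copy of let-7a, was at 3.66, 5.54 and 4.29 CPM in H2S and 6.26, 8.13 and 6.26 CPM in control libraries. The H2S libraries lay below the controls under both scalings, with a log2 fold change of -0.61 (SE 0.25, edgeR adjusted p = 0.263), and -0.90 with total counts. let-7a-5p, at 19098 ± 4253 and 20337 ± 3347 CPM (SD, n = 3 each), is shared by 3 precursors, and the table assigns no mature form to miR-125b-1.

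**Figure D5:**
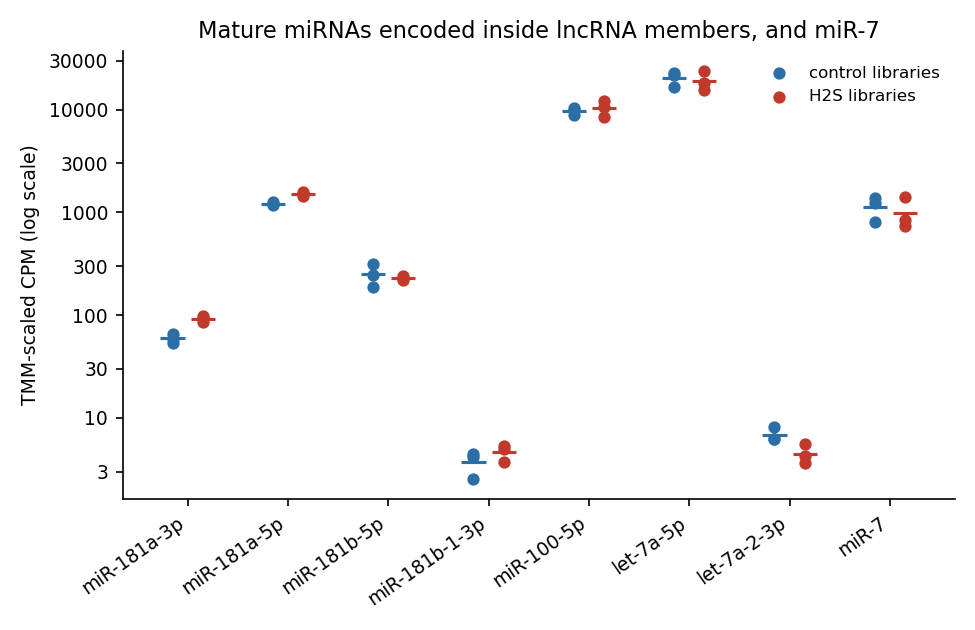
TMM-scaled CPM (log axis) of the 7 tested mature miRNAs encoded inside lncRNA genes, and of miR-7, with 1 point per small RNA library and a bar at the mean of the 3 libraries of each group. With this scaling the H2S and control points are apart for miR-181a-3p, miR-181a-5p and let-7a-2-3p and overlap for the others; with total counts only let-7a-2-3p stays apart.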

How the data were processed

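Per the file headers and values, the deposited tables hold raw counts per gene with a gene type (1 H2S and 1 control mRNA library) and raw counts per mature miRNA (3 and 3 small RNA libraries, 15239214 to 22718151 counts each). Per the submitters' processing notes, the authors used HISAT2 for mRNA and BWA for small RNA; the sources used here do not give versions, build, annotation, counting tool or strandedness.

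Each ratio sets the H2S count over the control count after TMM scaling (edgeR 4.0.16, R 4.3.3), with 95% exact (Clopper-Pearson) conditional intervals. Equal-count mRNA genes were weighted to the lncRNAs' bins of summed count, which double from 300. miRNAs were tested with edgeR's quasi-likelihood F-test after filterByExpr, Benjamini-Hochberg adjusted over 378 miRNAs, threshold 0.05, and with DESeq2 1.42.0. Both procedures were run on simulated data, with counting error only for the intervals and an assumed spread for the miRNA test. Such runs check the code and not the spread between these libraries. Names, types and gene order come from a RefSeq table of GRCg7b; no coordinates are printed because the files' build is not named.

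The members and lists were chosen with earlier results of these data known. Named by rule are the 10 with most reads, the 10 highest and 10 lowest ratios, known lncRNAs, miRNA hosts, those nearest the threshold, and their nearest coding neighbours. LOC107054726, LOC769840, LOC107054877, LOC107053357, the lncRNAs beside transcription factor genes, miR-7, miR-7b and miR-2954 lie outside this rule and were chosen after their values were seen. Not all marker lists are reported here.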

Additional observations from a re-analysis of the deposited data

How the results depend on the processing

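Scaling by total counts, DESeq2 size factors or upper quartiles gave 11 to 13 higher and 16 to 19 lower lncRNAs, an excess over equal-count mRNA genes of 5.81 to 6.51 percentage points and a median log2 ratio of 0.0063 to 0.070. The unweighted median of mRNA genes moved along with it, from -0.056 to 0.0072. The count threshold, which also sets how many lncRNAs are counted, mattered most to the counts. With summed counts of at least 100, 44 of 632 lncRNAs were higher and 45 lower, an excess over mRNA genes of 6.23 percentage points. Of the 42 past 2-fold with a measured neighbour, 28 lay on its side of 1. With at least 1000, 0 of 57 were higher and 4 lower, an excess of 4.32 percentage points. The median log2 ratio was then -0.080 and the neighbour count was 1. With at least 10, 299 of 2057 were higher and 265 lower, the excess over mRNA genes was 0.192 percentage points and the neighbour count was 98 of 188. The 97 lncRNAs so typed by RefSeq gave 6 higher, 5 lower and a median of 0.14, from fewer genes. Without the 60 known to overlap a coding gene, 227 remained, including the 172 without an entry, whose overlap is unknown. Of these 227, 6 were higher and 14 lower, the excess over mRNA genes was 4.94 percentage points and the neighbour count was 4 of 4. A 1.5-fold threshold gave 35 higher, 32 lower and a neighbour count of 15 of 24, and a 3-fold threshold gave 3 higher, 4 lower, an excess of 1.20 percentage points and a neighbour count of 2 of 3. An alternative added after seeing the data, without the 18 typed as protein-coding, gave 10 higher, 17 lower and a median of 0.026. The cause of these shifts was not tested. No paired analysis was possible because each group had 1 mRNA library.

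In the small RNA libraries, 0 of the 7 miRNAs were called under every alternative, including each left-out library and a replicate block. Calls over all miRNAs were few as well. The edgeR settings called 1 to 3 of the 378 to 987 miRNAs tested, and DESeq2 called 8 of 429. At such shares, 0 of 7 says little about these miRNAs. The labels state no pairing of H2S and control libraries by replicate number. Same-numbered libraries had correlations of -0.31, 0.08 and 0.27 in their deviations from the group means. With 3 libraries per group, these correlations cannot decide whether the numbers pair the libraries. miR-100-5p turned to -0.17 with total counts, which also took miR-181a-3p to 0.38 and miR-181a-5p to 0.042. The overlap of libraries under total counts was looked at after seeing the data. Leaving out 1 library gave -0.017 to 0.24 for miR-100-5p, -0.28 to 0.040 for let-7a-5p, -0.25 to 0.067 for miR-181b-5p, -0.53 to -0.03 for miR-7 and 0.60 to 0.71 for miR-181a-3p, whose adjusted p was 0.169 to 0.417 over the alternatives.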
